A study of Mus musculus with 9 samples.

Results

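Circular RNAs (circRNAs) listed as sense overlapping rather than exonic were examined in mouse hearts. The authors' table gave each circRNA a catalog, and every circRNA catalogued as sense overlapping was taken, apart from those of the titin gene Ttn. This gave 585 of 4610 circRNAs (12.7%), and the choice used no expression value. A further 35 sense-overlapping circRNAs of Ttn were left out. The 585 members carried 440 host gene names, and 6 members had no host name. RNA came from hearts of wild type mice before birth at embryonic day 18 (E18), at postnatal day 3 (3d) and in adults at 8 weeks (8w), with 3 libraries per stage. The labels also use the word cardiocytes, and they do not say that each replicate came from a separate animal, so the p-values measure only the spread between these samples. Whole hearts hold several cell types, and in such RNA fewer cells of a type and less RNA per cell cannot be told apart. Each library had 2676 to 4494 back-splice junction reads in all and 12196703 to 15612508 estimated linear fragments.

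A circRNA forms when the spliceosome joins the end of an exon back to the start of an upstream exon, so that the ends of an exonic circle lie at exon edges. The closed ring has no free end for exonucleases and can outlast the linear RNA of its gene. Heart muscle is known for circRNAs from sarcomere and calcium handling genes. A sequencer sees a circle only through reads that cross its junction. Such a read can also come from another arrangement of the same letters, which makes the sequence at the junction part of the measurement.

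Few sense-overlapping circRNAs had the ends of an ordinary exonic circle. Against GENCODE vM21 (GRCm38), 65 of 585 members (11.1%) had both ends exactly at exon edges, and 3468 of 3482 exonic circRNAs outside Ttn (99.6%) did. How the catalog was assigned is not stated, and the position of the ends may have entered it. The difference therefore describes the members and is not a test. One end lay at an exon edge in 321 members with 1574 reads, and no end in 199. The most frequent class was both ends inside exons, with 166 members whose median span was 675.5 bp, and the authors gave 164 of these no source in circBase or an earlier study. The class with the most reads ran from an exon edge at the 5′ end to a position inside an exon at the 3′ end, with 121 members and 804 reads. In 112 of those 121 the 3′ end lay in the last exon of the transcript read, and in 93 it lay in a 3′ UTR. A 5′ end in an intron with a 3′ end at an exon edge was found in 78 members, and the mirror arrangement in 55.

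**Figure D1:**
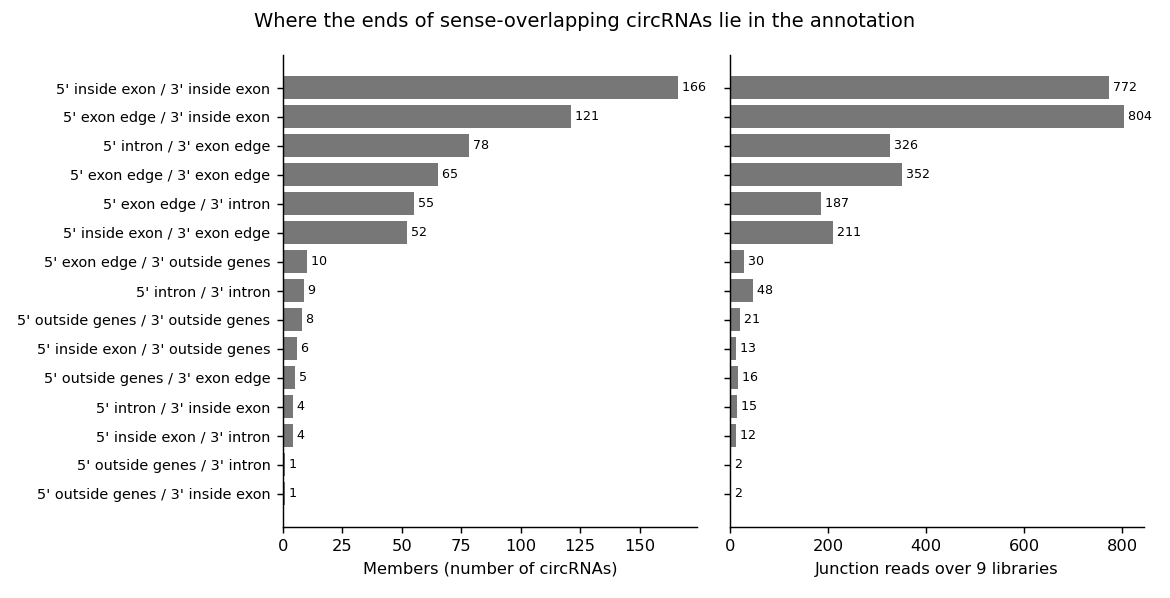
Number of members (left) and junction reads over 9 libraries (right) for each combination of end positions; an exon edge is an exact match to an annotated exon start or end. Both ends inside exons is the largest class by members (166), and an edge joined to a position inside an exon is the largest by reads (804).

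The ends at exon edges were in part those of exonic circles of the same gene. Of 251 named-host members with the 5′ end at an edge, 75 (29.9%) shared that end with an exonic circRNA of the host. Of 199 with the 3′ end at an edge, 50 (25.1%) did. No member end inside an exon was shared with an exonic circRNA, which follows from where exonic circles end. Among the 291 members with a 3′ end inside an exon, 38 shared that position with another member. Of the 440 hosts, 197 also had exonic circRNAs.

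The junction sequence could be put together from annotated transcripts for 400 members, and for 160 of these, with both ends inside exons, the bases around both ends could be compared. A run of identical bases at both ends leaves the exact join undetermined, because the same junction can be drawn at any position along the run. The run was at least 4 bases long in 57 of the 160 and at least 6 in 45. Without the 16 members of Plagl1 these counts were 42 and 30 of 144. No base was shared in 54 of the 160. The following sequences show such runs in coding exons; each was read from GENCODE vM21 transcripts on the strand of the gene, and capitals mark the shared bases.

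Myh6, around the 3′ end: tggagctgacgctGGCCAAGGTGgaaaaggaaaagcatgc
Myh7, around the 5′ end: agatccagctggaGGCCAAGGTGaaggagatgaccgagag
Myh6 and Myh7, junction: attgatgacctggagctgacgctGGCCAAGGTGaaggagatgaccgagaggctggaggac
Mybpc3, around the 3′ end: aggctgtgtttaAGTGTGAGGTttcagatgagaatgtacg
Mybpc3, around the 5′ end: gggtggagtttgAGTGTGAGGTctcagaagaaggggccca
Nufip2, around the 3′ end: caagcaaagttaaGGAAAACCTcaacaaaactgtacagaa
Nufip2, around the 5′ end: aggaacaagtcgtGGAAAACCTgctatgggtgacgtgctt
mt-Co1, around the 3′ end: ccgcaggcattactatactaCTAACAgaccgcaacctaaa
mt-Co1, around the 5′ end: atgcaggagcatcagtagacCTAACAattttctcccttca

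In each pair the member's junction leaves the upper sequence within or before the capitals and continues in the lower one. The first pair belongs to the member with the most reads of all (185), listed under Myh6 on the minus strand at chr14:54953322-54983710. Its 10 shared bases lie in exon 22 of 39 of Myh6-201 and exon 24 of 41 of Myh7-204. The second pair belongs to a member in Mybpc3, cardiac myosin-binding protein C, on the plus strand at chr2:91124664-91125335, with 15 reads and 10 shared bases between exons 16 and 18. The third is in Nufip2 on the plus strand at chr11:77692142-77692356, with 10 reads and 9 shared bases. The last is in mt-Co1, a cytochrome oxidase subunit encoded by the mitochondrial genome, on the plus strand at chrM:5760-5954, with 8 reads and 6 shared bases. Of the 31 circRNAs on the mitochondrial genome, whose genes have no introns, 30 were members, with 82 reads between them.

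A junction was also compared with every annotated transcript as a linear stretch. In 21 members with 103 reads, at least 54 of the 60 junction bases were matched in order by a linear transcript, and 16 of the 21 were hosted by Plagl1 and 2 by Myh6. None of 3474 exonic circRNAs with a readable junction had such a match. The other members of the 21 were in Srrm2, Ifit2 and Cyp51. Reads of these 21 cannot be told apart by sequence from reads of a linear RNA at that tolerance.

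Members joining different genes were the third kind. In 49 members with 355 reads the 2 ends lay in different genes, which happened in 0 exonic circRNAs. Of the 41 whose junction could be read, 2 with 191 reads had the 30 bases of both sides, letter for letter, within 1 transcript in the order of a back-splice, and both were listed under Myh6. In 2 others with 8 reads these stretches stood next to each other in linear order, 1 in Myh6 and 1 in Myh7. The remaining 37, with 134 reads, had no annotated transcript holding both. More of these lay on the mitochondrial genome, with ends in 2 mitochondrial genes, than on any nuclear chromosome. An RNA that spans several genes but is not annotated as 1 transcript would not be found this way.

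Sense-overlapping circRNAs held 7.15% to 10.65% of the junction reads of a library. The share was 8.03%, 8.14% and 7.55% in the E18 libraries, 10.65%, 7.15% and 8.81% at 3d, and 8.65%, 9.19% and 9.02% at 8w. The means were 7.91% ± 0.31, 8.87% ± 1.75 and 8.95% ± 0.28 (SD, n = 3). Every 8w library lay above every E18 library, and the 3d libraries spanned both. A two-sided exact permutation test over libraries gave p = 0.1 for 8w against E18, the smallest value 3 against 3 libraries can give, p = 0.5 for 3d against E18 and p = 0.9 for 8w against 3d. Shares by library carry counting error from 218 to 413 member reads.

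**Figure D2:**
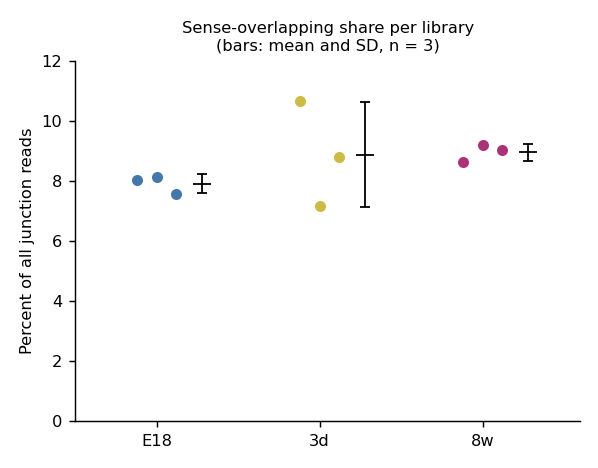
Sense-overlapping reads as a percent of all junction reads, 1 point per library, with the mean and SD of 3 libraries at the right of each stage. The E18 libraries lie between 7.55% and 8.14%, the 8w libraries between 8.65% and 9.19%, and the 3d libraries between 7.15% and 10.65%.

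Reads were sparse and unevenly spread over hosts. The 585 members held 2811 of 32813 junction reads with a median of 3 reads, and 265 had exactly 2, the lowest total in the table. Of the members, 359 were seen in 1 library and 4 in all 9. A minimum of 10 reads over the 9 libraries was passed by 42 members, and by 50 hosts after pooling the reads of all their members. The hosts Zfp644 and Myh6 held 15.8% of member reads and the leading 15 hosts 36.0%. Most hosts, 375, had 1 member, and Plagl1 had the most, 16.

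Stage differences were called for few members. Each call is a Benjamini-Hochberg adjusted p under 0.05 in edgeR's quasi-likelihood test on junction reads, adjusted over 626 circRNAs, or over 672 entries when reads were pooled by catalog and host. Among the 50 pooled hosts, 1 was called at 3d against E18 (background 0.149% of all entries), 3 at 8w against 3d (background 2.53%) and 4 at 8w against E18 (background 3.87%). Among the 42 single members, 1, 2 and 4 were called, with backgrounds of 0.319%, 2.88% and 4.95% of all circRNAs. These backgrounds include the members. At 3d against E18 the pooled member call was the only 1 among 672 entries, and 2 of 626 circRNAs were called in all. The pooled calls were Myh6, Mb, Plagl1 and Zranb1, and the single calls Myh6, Mb, Zranb1 and a circRNA listed under Rbp7. The median log2 fold change of the pooled hosts was 0.01, 0.15 and 0.10 in the 3 comparisons, against −0.13, 0.04 and −0.19 over all entries. The comparisons share stages, so their calls are not independent of each other.

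**Figure D3:**
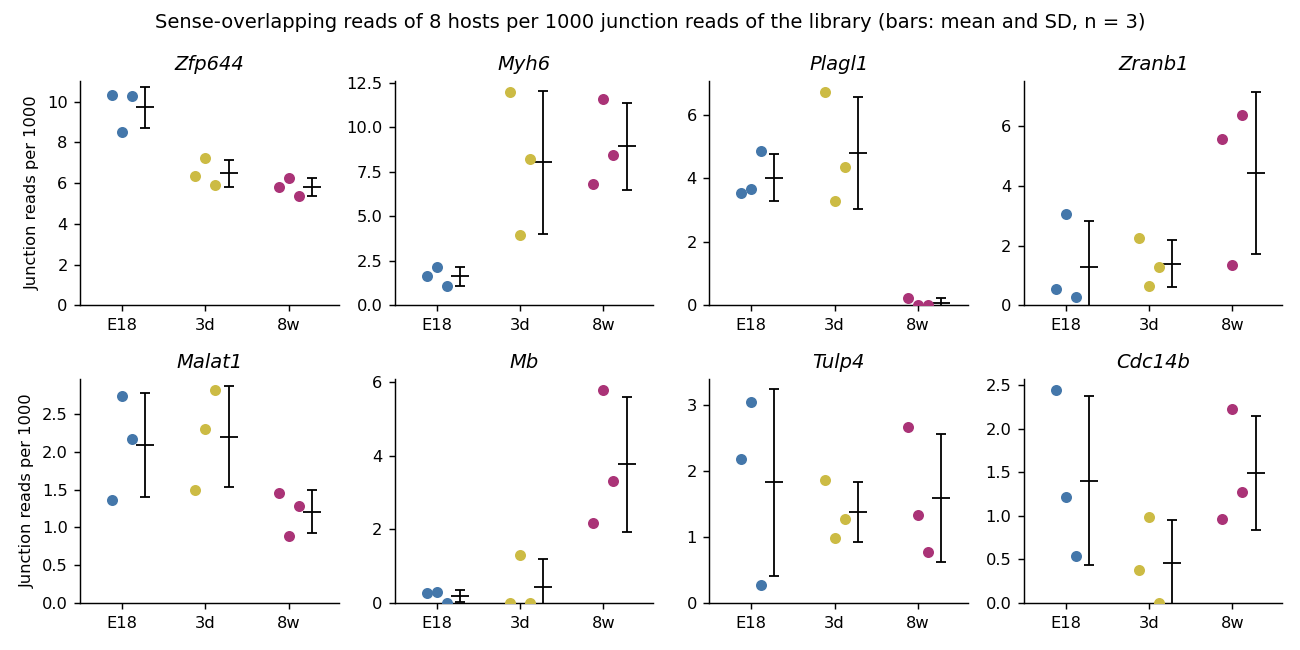
Sense-overlapping junction reads of 8 hosts per 1000 junction reads of the library, 1 point per library, with the mean and SD of 3 libraries (error bars are cut off at 0). Myh6 is lowest at E18, Mb is highest at 8w, Plagl1 is at or near 0 at 8w, and in Zranb1 the 8w replicate 2 lies among the younger libraries.

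Myh6, which encodes the fast alpha myosin heavy chain of the adult mouse heart, rose after birth in its sense-overlapping reads. Its members had 6, 7 and 4 reads in the E18 libraries, 32, 12 and 32 at 3d, and 28, 52 and 33 at 8w. No E18 library reached the lowest later library. Pooled reads rose by a log2 fold change of 2.14 ± 0.42 (SE) at 3d against E18 (edgeR adjusted p = 0.000248) and by 2.48 ± 0.41 at 8w against E18 (adjusted p = 2.74e-07). Relative to all junction reads this was 4.94-fold (95% counting interval 2.89 to 8.93) and 5.65-fold (3.38 to 10.03). From 3d to 8w the value was 0.34 ± 0.33 (adjusted p = 0.662), and the 3d and 8w libraries overlapped.

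Nearly all of these reads came from the member whose ends are printed above. It had 15 reads at E18, 68 at 3d and 102 at 8w, out of 17, 76 and 113 for the host. Its listed ends are 30389 bp apart and lie in Myh6 and in Myh7, the neighbouring gene for the slow beta myosin heavy chain, which the fetal ventricle uses. The 30 bases on either side of its junction also occur letter for letter within exon 22 of Myh6-201 alone, at chr14:54953322-54953456, 135 bases from end to end. As printed, the best linear match of its junction was 37 of 60 bases. Gene FPKM was 1133 ± 254 at E18, 3085 ± 748 at 3d and 6767 ± 777 at 8w for Myh6 (SD, n = 3), and 1916 ± 112, 1092 ± 280 and 21.4 ± 1.7 for Myh7. Myh6 and Myh7 are similar in sequence, and which gene the reads came from was not tested.

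Mb encodes myoglobin, the oxygen-binding protein of oxidative muscle. Its single member, on the minus strand at chr15:77015910-77017635, ran from inside the coding part of exon 2 to the 3′ UTR in exon 3 of Mb-203. The coding bases that follow the join are these, and no base was shared between its ends.

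Mb, 5′ side of the circle: atccagcctctagcccaatcacacgccacc

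It had 1, 1 and 0 reads in the E18 libraries, 0, 4 and 0 at 3d, and 9, 26 and 13 at 8w. Every 8w library lay above every younger library. Reads rose by a pooled log2 fold change of 3.22 ± 0.75 at 8w against 3d (edgeR adjusted p = 0.0021) and 4.12 ± 0.84 at 8w against E18 (adjusted p = 7.71e-05). The ratio of 48 to 2 reads for 8w against E18 was 20.39-fold with a wide 95% counting interval of 5.35 to 173.2. The 8w against 3d call ended without 3d replicate 3 (2.50) or without 8w replicate 2 (2.75). Gene FPKM was 972 ± 71.6, 1369 ± 86.7 and 7745 ± 447 at the 3 stages. No exonic circRNA of Mb or Myh6 had a read.

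Plagl1 is an imprinted gene for a zinc finger transcription factor of fetal growth. Its reads fell to almost none at 8w, from 13, 12 and 18 in the E18 libraries and 18, 10 and 17 at 3d to 1, 0 and 0. The pooled log2 fold change was −5.23 ± 0.79 at 8w against 3d (edgeR adjusted p = 1.15e-08) and −5.15 ± 0.80 at 8w against E18 (adjusted p = 4.13e-08). With 1 read at 8w, the ratio to 3d was 0.017 (95% counting interval 0.00 to 0.10). Gene FPKM fell in the same libraries, from 164 ± 9.17 at E18 and 129 ± 14.2 at 3d to 3.52 ± 0.41 at 8w, with limma log2 fold changes on log2(FPKM + 1) of −4.85 ± 0.11 (adjusted p = 7.44e-10) and −5.19 ± 0.11 (adjusted p = 3.63e-10).

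All 16 Plagl1 members lay within 1272 bp of 1 exon, the last of 6 in Plagl1-202, at chr10:13130282-13131553 in the 3′ UTR. This stretch is a tandem repeat. Shifted by 58 bases it was 83.8% identical to itself, against a median of 26.4% over shifts of 10 to 119 bases that are no multiple of 58. The span of 13 of the 16 members, holding 77 of 89 reads, was a whole multiple of 58 bases, from 3 to 8 repeat units. The 60 junction bases of every Plagl1 member matched a linear transcript at 57 to 60 positions. The Plagl1 reads therefore have the sequence of the linear 3′ UTR at that tolerance, and their share from circles was not tested.

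Zranb1 encodes a deubiquitinase of the Wnt pathway. Its reads were 2, 10 and 1 at E18, 6, 2 and 5 at 3d, and 23, 6 and 25 at 8w. The 8w replicates 1 and 3 were above all other libraries and 8w replicate 2 was not. The pooled log2 fold change was 1.84 ± 0.54 at 8w against 3d (edgeR adjusted p = 0.0344) and 1.85 ± 0.54 at 8w against E18 (adjusted p = 0.0194). The first call ended without E18 replicate 2 (1.76), 3d replicate 2 (1.49) or 3 (1.72), or 8w replicate 1 (1.38) or 3 (1.46), and the second without E18 replicate 1 (1.52) or 3 (1.44) or 8w replicate 1 (1.51) or 3 (1.57). Neither passed DESeq2 (adjusted p = 0.203 and 0.0703), a minimum of 5 or 1 reads, or a replicate block, and the first also ended without TMM or with a minimum of 20 reads. Over these settings and left-out libraries that ended a call, adjusted p ran from 0.0519 to 0.230. Gene FPKM was 23.7 ± 2.06, 28.1 ± 0.71 and 23.3 ± 0.81. Linear Zranb1 fell at 8w against 3d (−0.26 ± 0.09, limma adjusted p = 0.0268), a call that ended after median centring (−0.08), with edgeR (−0.12), and without 3d replicate 2 (−0.27) or 3 (−0.24) or 8w replicate 2 (−0.26) or 3 (−0.24). At 8w against E18 it was −0.03 ± 0.09 (limma adjusted p = 0.809), but 0.33 after median centring (adjusted p = 0.0159) and 0.41 with edgeR on the estimated counts (adjusted p = 0.0022), both calls.

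The leading Zranb1 member, on the plus strand at chr7:132948044-132950435, had 57 of the 80 reads and was in circBase. It ended at the edge of coding exon 2 of Zranb1-202, whose last bases are shown, and began in the intron upstream. Of the 5 Zranb1 members 3 began at that same base.

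Zranb1, 3′ side of the circle: ctgattggctattcctcaatgcctgtgtgg

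**Figure D4:**
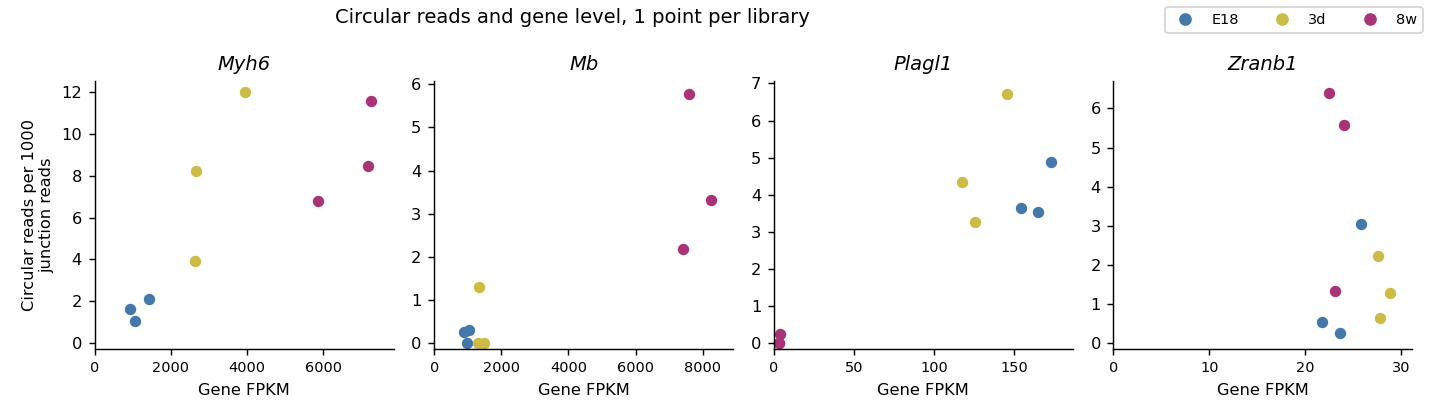
Sense-overlapping junction reads per 1000 junction reads (vertical) against the FPKM of the host gene (horizontal), 1 point per library, coloured by stage. For Plagl1 the 8w libraries are near 0 on both axes, for Myh6 and Mb they are the highest on the horizontal axis, and for Zranb1 gene FPKM lies between 21.7 and 28.9 in all libraries.

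The called circRNA listed under Rbp7, a retinol-binding protein gene, came from 1 library. All of its 16 reads were in 8w replicate 1, and the other 8 libraries had 0. Set against a floor of 3 reads over the 3 libraries of a stage, the pooled 16 reads would be 4.53-fold above E18 and 4.10-fold above 3d. The lower ends of the exact 95% counting intervals, which also take in the error of the 16 reads, are 3.28 and 2.96. These values pool a stage in which 1 library held every read, so they do not describe the stage. The single edgeR calls (adjusted p = 0.0252 and 0.0487) rested on that library. Leaving out any E18 library also ended the E18 call, leaving out E18 replicate 2 or any 3d library ended the 3d call, and the fitted log2 value then lay between 5.35 and 5.46. The pooled entry did not pass (adjusted p = 0.0744 and 0.09996).

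Its ends, on the minus strand at chr4:149398599-149474595, were both annotated exon edges, but not of Rbp7. The 5′ end lay in exon 2 of Nmnat1, which encodes a nuclear enzyme of NAD synthesis, and the 3′ end in exon 2 of Ube4b, a ubiquitin chain assembly factor, with all of Rbp7 between them. In the same library Rbp7 stood at 51.2 FPKM against 13.0 and 14.8 in the other 8w libraries, 3.68 times their mean. Nmnat1 stood at 28.6 against 12.3 and 13.6, 2.21 times their mean. Ube4b (17.3 against 16.7 and 17.1) and the outside neighbours Lzic (18.8 against 17.3 and 16.5) and Ctnnbip1 (8.16 against 9.56 and 8.49) did not stand apart in this way. These are values of 1 library with no replicate check.

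**Figure D5:**
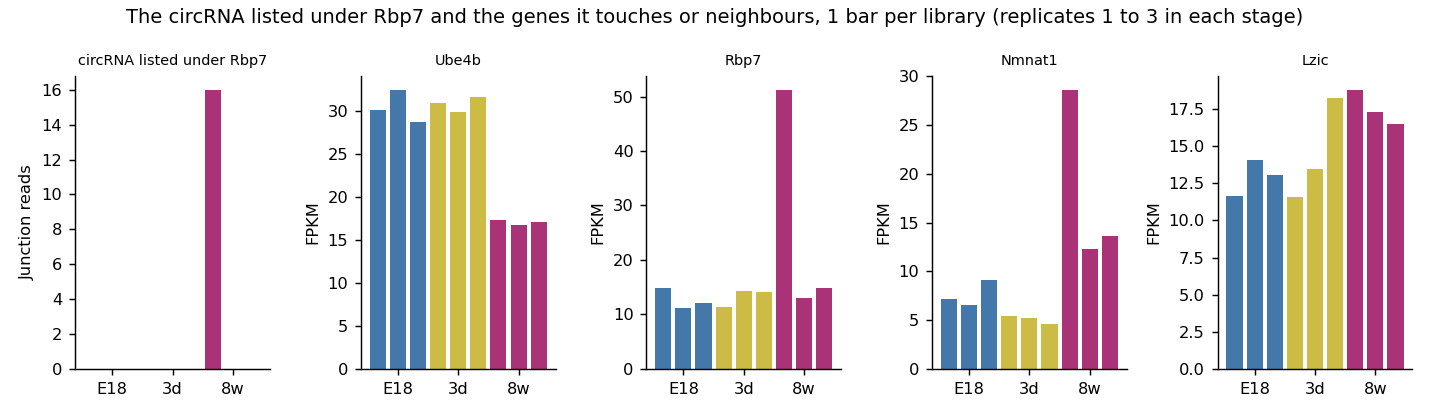
Junction reads of the circRNA listed under Rbp7 and FPKM of 4 genes at the locus, 1 bar per library in the order of replicates within each stage. The 16 junction reads and the highest Rbp7 (51.2) and Nmnat1 (28.6) values all fall in 8w replicate 1, where Ube4b and Lzic are close to the other 8w libraries.

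The host with the most reads, Zfp644, which encodes a zinc finger protein, had 38, 28 and 38 reads at E18, 17, 22 and 23 at 3d, and 24, 28 and 21 at 8w. Per 1000 junction reads the E18 libraries (8.53 to 10.34) lay above all 3d (5.89 to 7.22) and 8w libraries (5.37 to 6.23). The pooled log2 fold changes of −0.74 ± 0.33 at 3d and −0.73 ± 0.33 at 8w against E18 did not pass edgeR after adjustment (adjusted p = 0.594 and 0.206). Zfp644 FPKM, by contrast, was 77.0 ± 0.68, 77.9 ± 3.72 and 45.4 ± 2.30, a log2 fold change of −0.77 ± 0.08 from 3d to 8w (limma adjusted p = 1.56e-05).

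The 3 Zfp644 members, all in circBase, shared 1 end. The leading member with 178 reads, on the minus strand at chr5:106618071-106638635, ran from the start of exon 3 to a base in the 3′ UTR of exon 6, the last exon of Zfp644-204. A second with 57 reads ran from the start of exon 2 at 106666845 to the same base in the 3′ UTR, and the third, with 4 reads, from 106619642 to that base. The coding bases at the start of the leading circle are the following. Exonic circRNAs of Zfp644 had 143, 85 and 66 reads at the 3 stages.

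Zfp644, 5′ side of the circle: actaaaggtgttaaatgatcttgccaacaa

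The same form, from the edge of an internal exon into the 3′ UTR of the last exon, was taken by the leading members of Ttc3 (25 reads), Ube2e3 (23), Ubn2 (23) and Pank1 (19). Ttc3 and Ube2e3 encode a ubiquitin ligase and a ubiquitin-conjugating enzyme, and Pank1 an enzyme of coenzyme A synthesis. Pooled reads of Ttc3 were 17, 7 and 3 at E18, 3d and 8w, and of Ube2e3 13, 6 and 4. Pank1 had 11, 9 and 12. Ubn2, whose product belongs to a histone chaperone complex, had 7, 2 and 22, and its rise of 3.02 ± 1.04 at 8w against 3d did not pass (edgeR adjusted p = 0.09996).

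Other leading hosts showed no called change. The nuclear long non-coding RNA Malat1 had 13 members with 22, 22 and 15 reads at E18, 3d and 8w, 11 of the members with both ends inside exons, and its lncRNA entry stood at 10523 ± 1850, 14970 ± 1209 and 10157 ± 801 FPKM. Tulp4, a tubby-like protein gene, had 19, 13 and 20 reads, and its 3 members shared the 5′ end and ended at coding exon edges. Cdc14b, which encodes a dual-specificity phosphatase, had 15, 4 and 19. At these depths the approximate standard error of a log2 fold change was large. At 8w against 3d it was 0.89 for Cdc14b with 38 reads and 1.04 for Ubn2 with 31 reads.

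Some genes of the contractile and calcium machinery were hosts. Over all tested coding genes, 396 of 11930 (3.32%) were hosts, a share not matched to the lists below by expression level. Of 28 sarcomere genes 5 were hosts, and of these Myh6 and Mybpc3 had at least 10 reads. Mybpc3 had 5, 7 and 3 reads at the 3 stages, with no call. Of 14 genes of calcium handling and excitation 6 were hosts, with 38 reads between them and none with 10. Slc8a1, the sodium-calcium exchanger gene, had 7 sense-overlapping reads beside 542, 489 and 491 exonic reads at the 3 stages. None of 13 extracellular matrix genes was a host, 2 of 12 metabolic genes were, and of 11 genes known elsewhere for circRNAs 3 were.

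The host genes were also followed by their linear level. Of 440 hosts 403 had a row in the coding table and 396 passed a mean of 1 FPKM. By limma on log2(FPKM + 1), 108 were called at 3d against E18 (27.3%; background 26.4% of 11930 genes), 262 at 8w against 3d (66.2%; background 58.4%) and 290 at 8w against E18 (73.2%; background 65.1%). The calls were 31 higher and 77 lower (background 5.0% and 21.4%), 80 and 182 (21.4% and 37.1%), and 66 and 224 (17.8% and 47.3%). The median coding gene moved by −0.15, −0.18 and −0.32 on this scale. Median centring, which shifts all genes of a library alike, gave 62 and 27 (background 9.61% and 8.36% of all genes), 99 and 136 (28.3% and 26.7%), and 115 and 133 (30.7% and 26.7%). Over the 44 hosts with both tests, Spearman's rho between the circular and the linear log2 fold change was 0.32, 0.566 and 0.608. These coefficients are across hosts measured in the same libraries and are a description only.

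Genes that shape or clear circRNAs were read out from a list of 33, of which 30 were tested. At 3d against E18, 2 rose and 12 fell by limma, 6.67% and 40.0% of those tested (background 5.0% and 21.4% of all genes). At 8w against 3d, 2 rose and 22 fell, 6.67% and 73.3% (background 21.4% and 37.1%). At 8w against E18, 2 rose and 24 fell, 6.67% and 80.0% (background 17.8% and 47.3%). After median centring the counts were 4 and 4, 3 and 18, and 2 and 17 of 30 tested. Of all genes 9.61%, 28.3% and 30.7% were then higher and 8.36%, 26.7% and 26.7% lower. The list's median log2 fold change was −0.26, −0.67 and −0.72, against −0.15, −0.18 and −0.32 over all coding genes. After centring it was −0.078, −0.49 and −0.363, against 0.024, 0.002 and 0.033. At 8w against E18 the splicing factors Rbfox1 (2.30 ± 0.12, limma adjusted p = 7.86e-08) and Mbnl1 (0.93 ± 0.08, adjusted p = 2.59e-06) rose. Ago2 fell by 1.83 on the log2 scale, the paraspeckle protein gene Nono by 1.54, and Dhx9, a helicase that unwinds paired intron repeats, by 1.38. Adar, which edits double-stranded RNA, fell by 0.72, a call that ended after median centring (−0.36) and with edgeR on the estimated counts (−0.22).

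Marker levels of several cell types are given by their summed FPKM, as the lowest to the highest library of E18, 3d and 8w. The 8 cardiomyocyte markers summed to 13166 to 13314 at E18, 14189 to 15935 at 3d and 25013 to 26665 at 8w, and none was at 0. Myh6 is itself among these 8 markers, so its own rise, given above, is part of the sum. The 5 erythroid markers summed to 3269 to 3556, 1011 to 1364 and 701 to 1583. The 5 skeletal muscle markers summed to 13.4 to 22.2, 14.3 to 18.1 and 53.7 to 131, macrophage markers (4 of 5 measured) to 13.2 to 15.4, 13.5 to 22.4 and 42.7 to 51.3, and fibroblast markers to 251 to 286, 215 to 345 and 328 to 440. Ranges overlapped between E18 and 8w for endothelial markers (268 to 294, 276 to 359 and 249 to 298), and smooth muscle and pericyte markers summed to 415 to 462, 352 to 453 and 331 to 399. The 4 lung epithelium markers reached 56.8 in a 3d library and 103 in an 8w library. Their part in the changes of Myh6, Mb, Plagl1 and Zranb1 was not tested.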

How the data were processed

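The circRNA values are counts: the authors deposited back-splice junction reads per circRNA and library, per the file headers. No source used here names the circRNA caller or how a catalog was assigned. A further 9 per-sample columns of that table were not used. FPKM per coding gene and lncRNA, and estimated counts, were deposited by the authors in separate tables; the submitters' processing notes name cutadapt 1.9.1, HISAT2 2.0.4, Cuffdiff, GRCm38 and mm10. The estimated counts were rounded to whole fragments after division by a factor per library, and were used for depth and for 1 alternative fit.

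Coding entries were summed by gene symbol. Circular reads were tested with edgeR 4.0.16 (quasi-likelihood, TMM, library size of all junction reads, at least 10 reads over 9 libraries), single and pooled by catalog and host. Linear genes were tested with limma 3.58.1 (trend) on log2 of FPKM plus 1, with a mean FPKM of at least 1. All 9 libraries were in 1 fit with 6 residual degrees of freedom. Before adjustment, edgeR p-values followed from estimate and standard error almost as in a normal distribution, not as with 6 degrees of freedom. They therefore rest largely on a spread shared over all tested circRNAs or entries, and little on the replicate spread of each. A circRNA with all its reads in 1 library could still be called, as the one listed under Rbp7 was. Ratios are relative to all junction reads of a stage, with 95% exact intervals; intervals and floors (3 reads) cover counting error only. Shares were compared with exact permutation tests.

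Ends were compared with GENCODE vM21 (GRCm38). Junctions of 60 bases, 30 from each side, were built from its transcripts and compared with all of them (BLAST 2.17.0; a match is at least 54 identical bases). No genome was used, so splice dinucleotides and intron flanks were not read. The fits were also run on simulated data, in which all circRNAs had the same spread around their mean. Such data hold no single outlying library, so that run could not show false calls like the one listed under Rbp7. The alternatives were other filters, DESeq2 1.42.0, no TMM, other library sizes, the 2 stages compared alone, the replicate number as a block, each library left out, a pseudocount of 0.1 and median centring.

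Named hosts were the 15 with the most reads, every called host, and list members with at least 10 reads; 3 of the 15 have clone numbers as names and are not named. Nufip2, the mitochondrial member and the neighbours of Rbp7 were chosen after their values were seen. The members and lists were chosen with earlier results of these data known. Some list members are not reported here.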

Additional observations from a re-analysis of the deposited data

How the results depend on the processing

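The pooled calls of Myh6 and Plagl1 held under every alternative run, and the other named calls did not all hold. Single circRNAs called at 8w against 3d (2) came to 1 without TMM, with DESeq2, with a minimum of 5, 1 or 20 reads, with the 2 stages compared alone, with library sizes from linear fragments and with library sizes of the tested circRNAs, an alternative chosen after seeing the data. At 8w against E18 (4) they came to 7 without TMM, with 2 stages alone and with linear fragments, and to 2 with DESeq2 and with a minimum of 5 or 1 reads. Leaving out 1 library gave 0 to 3 at 8w against 3d (0 without 3d replicate 1 or 3) and 2 to 6 at 8w against E18. Pooled hosts came to between 1 and 3 at 8w against 3d (1 without 3d replicate 3) and between 3 and 7 at 8w against E18 (7 without 8w replicate 2). Linear hosts called at 3d against E18 came to 121 with edgeR on the estimated counts, 20.2% higher and 10.4% lower (background 11.5% and 10.5%). They came to 66 to 119 without single libraries, with 70 without E18 replicate 2 and 66 without E18 replicate 3. For the other settings the shares called over all circRNAs, entries or genes are not given. Those counts therefore do not set the members apart from all features. The cause of these moves was not tested.

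The difference in share turned to −0.453 at 3d against E18 relative to linear fragments and to −0.695 at 8w against 3d when distinct circRNAs were counted. At 8w against 3d it ranged from −0.776 without 3d replicate 2 to 0.973 without 3d replicate 1, with −0.036 without 8w replicate 2. At 3d against E18 (0.964) it ranged from 0.074 without 3d replicate 1 to 1.823 without 3d replicate 2. At 8w against E18 the difference stayed above 0 in every alternative. Relative to linear fragments, and with distinct circRNAs counted, the E18 and 8w libraries overlapped (exact permutation p = 0.2 for each). Linear Zranb1 at 8w against E18 (−0.03) turned to 0.33 after median centring and 0.41 with edgeR, both calls, and ran from −0.0854 to 0.0348 without single libraries (above 0 without E18 replicate 2). At 3d against E18, without single libraries, linear Zfp644 (0.02) ran from −0.017 without 3d replicate 1 to 0.0511, and linear Rbp7 (0.05) from −0.0295 without E18 replicate 2 to 0.166.

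Same-numbered libraries were no more alike than others. Correlations of their residuals ran from −0.128 to 0.099, and those of differently numbered libraries from −0.132 to 0.132. With the replicate number as a block, single circRNAs called were 1, 1 and 2 in the 3 comparisons, pooled hosts 1, 2 and 3, and linear hosts 98, 253 and 287. The shares of all circRNAs, entries and genes called with the block are not given, so these counts are no result about the members. The GT and AG bases at the ends were not run, for want of a genome. With a median of 3 reads per member, counting error limits what can be seen for most of the 585.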
